A study of Bos taurus with 20 samples.

Results

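The major histocompatibility complex (MHC) of cattle, called BoLA, was described across 20 bulls from array signals of the longissimus dorsi muscle of the back. The members were all probe sets whose gene annotation holds a symbol starting with BOLA- or exactly BOLA, together with those of B2M, and they numbered 46 of the 24016 probe sets on the array after its controls were removed. Of these, 22 were annotated to class I genes, 21 to class II genes and 3 to B2M. CD74, the invariant chain, belongs to the same set of genes, and 0 probe sets were annotated to it in the table used here. The gene set was chosen by its measured values, for gaps between bulls seen earlier in BOLA-DQA1 and BOLA-DQB1. Those gaps are therefore given as a description, with no test.

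All 20 animals were Holstein x Charolais F2 crossbred bulls, and each gave 1 muscle sample on 1 array. By their labels, 10 had a high and 10 a low intramuscular fat (IMF) content. The sample titles form 2 series: 10 titles hold an S before the animal's number and 10 do not, with 5 high and 5 low IMF bulls in each. No label explains the S, and the 10 bulls without it are called the bulls with other titles. Within each IMF group the bulls are numbered in the order of their records: numbers 1 to 5 carry other titles and numbers 6 to 10 S titles. The labels give no age, treatment or MHC genotype for the bulls.

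Class I molecules are carried by almost all nucleated cells and show peptides from inside the cell to CD8 T cells; each is a heavy chain paired with beta-2-microglobulin, the product of B2M. Class II molecules are pairs of an alpha and a beta chain, in cattle DR (BOLA-DRA with BOLA-DRB3) and DQ (BOLA-DQA with BOLA-DQB genes), and are carried mainly by macrophages, dendritic cells and B cells, which show taken-up peptides to CD4 T cells. BOLA-DMA and BOLA-DMB form DM, which loads peptides onto class II molecules, and BOLA-DOA is a chain of DO, which restrains DM. The DQ genes are among the most variable genes of cattle, and their number differs between haplotypes. In muscle the fibres themselves carry little MHC, and resident macrophages and other immune cells and the vessels carry more.

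Values are log2(signal + 1) throughout, where the signal is the deposited intensity of a probe set and 1 log2 unit is a change by a factor of 2. A level of about 3 or less is near the bottom of the array's range, where values scatter from 0 upwards with no order to be read. Tests used limma over the 14409 probe sets left after the 40% with the lowest means were dropped, with Benjamini-Hochberg adjustment and a threshold of 0.05. Of the members, 26 entered the tests (12 class I, 11 class II and 3 B2M) and 20 did not (10 class I and 10 class II). The level of one probe set says nothing about that of another, because probes differ in brightness. A probe set whose annotation holds several symbols is called by that annotation, not by a single gene. Where several probe sets share an annotation they are lettered from A by decreasing mean signal, and the figures give their names on the array. Those annotated to BOLA-N, BOLA and BOLA-NC1 together are called shared class I probe sets A to L.

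Muscle fibre genes were near the top of the scale on every array. The arrays themselves differed between the title series: of 7 bacterial hybridization control probe sets, 5 did not overlap between the series and were lower in the S bulls. Median signals ran from 51.65 to 67.66, and 4 arrays, of high IMF bulls 6, 8 and 10 and low IMF bull 3, had an albumin signal over 2000. High IMF bulls 6 and 9 had the arrays with the lowest median signal.

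**Figure D1:**
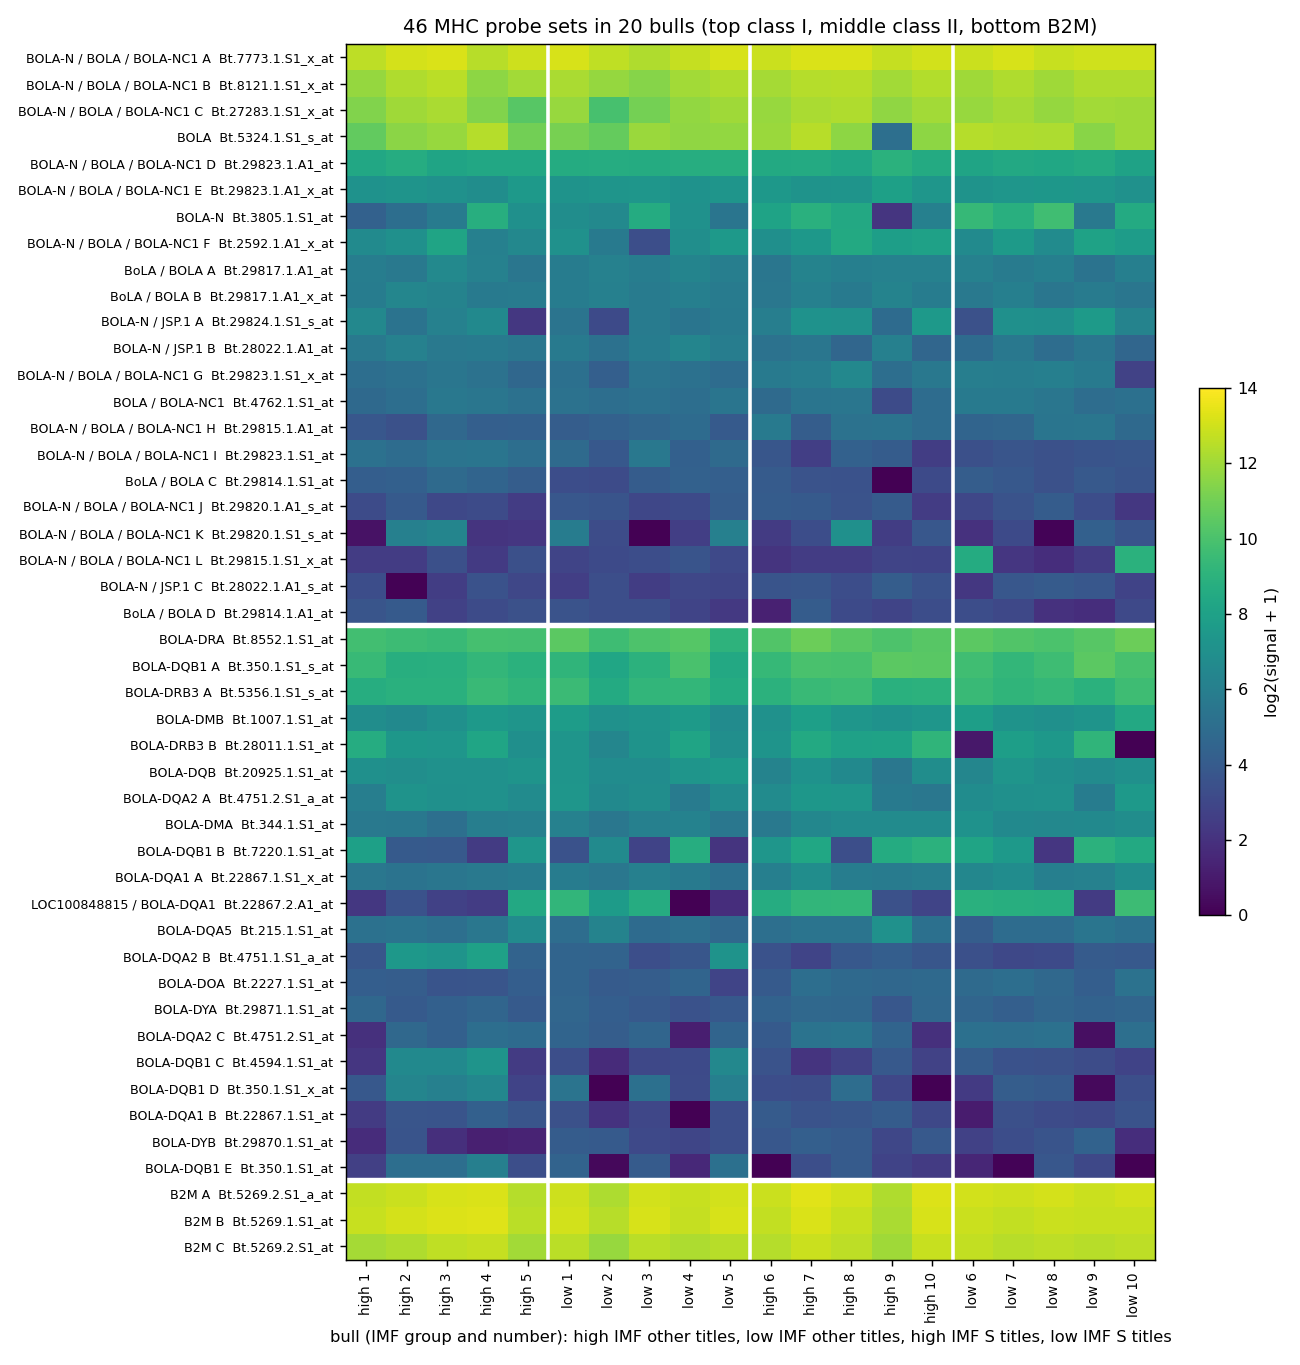
Each row is 1 of the 46 MHC probe sets, each column 1 of the 20 bulls, and the colour gives log2(signal + 1) from 0 to 14; rows run by mean within class I (22), class II (21) and B2M (3), and white lines part the IMF and title groups of 5 bulls. The B2M rows and the brightest class I row keep nearly 1 colour across bulls, while several DQ rows switch between dark and bright.

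Among members with at least 3 bulls on each side of the break, the largest break was in the probe set annotated to both LOC100848815 and BOLA-DQA1, an alpha chain of DQ. In high IMF bulls it ran from 2.27 to 9.28 with a median of 3.51, and in low IMF bulls from 0.04 to 9.58 with a median of 8.70. In S bulls it ran from 2.44 to 9.58 with a median of 8.74, and in the other bulls from 0.04 to 9.23 with a median of 3.11. The bulls formed 2 levels with nothing between 3.53 and 7.68: 11 bulls lay between 7.68 and 9.58 and 9 bulls between 0.04 and 3.53. Both levels occurred in every group, the upper level in 4 high and 7 low IMF bulls and in 7 S and 4 other bulls.

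BOLA-DQB1, the beta chain of DQ, had a similar break in its probe set B. It ran from 2.42 to 9.01 with a median of 7.37 in high IMF bulls and from 2.08 to 8.98 with a median of 7.13 in low IMF bulls. In S bulls it ran from 2.24 to 9.01 with a median of 8.26, and in the other bulls from 2.08 to 8.75 with a median of 3.95. Here 12 bulls lay between 6.69 and 9.01 and 8 bulls between 2.08 and 3.96. The upper level held 6 high and 6 low IMF bulls, and 8 S and 4 other bulls.

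The 2 breaks did not part the bulls the same way. On both upper levels were 7 bulls, 4 were on the upper level of the LOC100848815 and BOLA-DQA1 probe set alone, 5 on that of BOLA-DQB1 alone, and 4 on neither. The 4 bulls on neither level were high IMF bulls 2, 3 and 4 and low IMF bull 5, all with other titles.

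**Figure D2:**
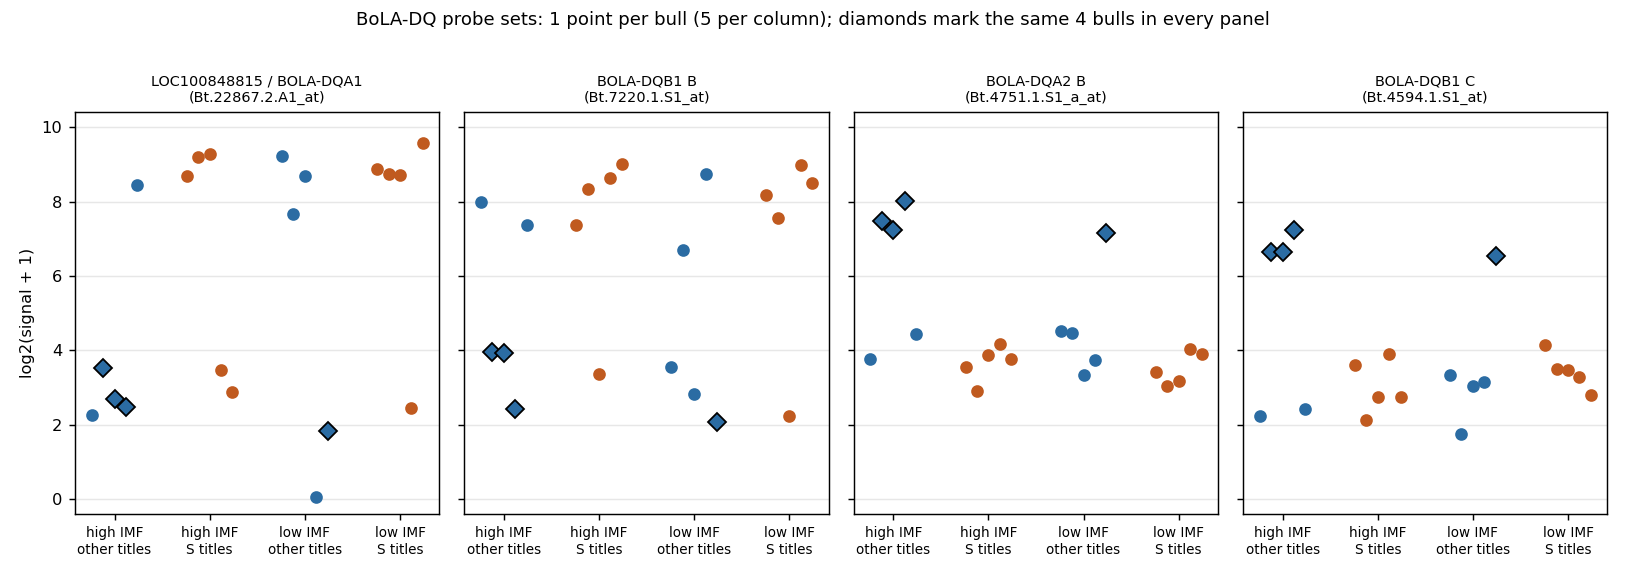
Each point is 1 bull, in columns of 5 by IMF group and title series (orange S, blue other titles), and the y axis is log2(signal + 1) for 4 DQ probe sets. The 4 bulls drawn as diamonds lie at 3.96 or less in the first 2 panels and at 6.54 or more in the last 2, where the other 16 bulls lie at 4.51 or less.

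Those 4 bulls were the ones with signal on 2 further DQ probe sets. On BOLA-DQA2 probe set B, another DQ alpha chain, they lay between 7.17 and 8.01 and the other 16 bulls between 2.89 and 4.51. On BOLA-DQB1 probe set C they lay between 6.54 and 7.23 and the other 16 between 1.74 and 4.13. Both probe sets split the bulls identically, in the direction opposite to that of the first pair, and both were too dim on average to enter the tests.

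A probe set annotated BoLA in another spelling, which the selection rule leaves out, parted the same 4 bulls downward: they lay between 5.49 and 5.80 on it and the other 16 bulls between 6.92 and 8.52. This probe set also parted the title series with no overlap, at 7.52 to 8.52 in S bulls and 5.49 to 7.33 in the others. The 4 bulls all have other titles. Outside the MHC, PRSS2, a trypsinogen gene, parted the 4 bulls upward, at 9.84 to 10.60 against 5.06 to 6.47. PRSS2 and the BoLA probe set were found by a search for this split. The search covered the 1260 probe sets with a gap of at least 1 log2 unit and at least 2 bulls on each side.

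The remaining DQ probe sets filled in the pattern. BOLA-DQB1 probe set E, which was too dim to be tested, ran opposite to probe set B. It lay between 3.78 and 6.06 in the 8 bulls on the lower level of probe set B and between 0.00 and 3.35 in the 12 bulls on the upper level, so the 2 groups did not overlap. BOLA-DQB1 probe set D, also dim, lay between 3.94 and 6.48 in those 8 bulls and between 0.01 and 4.12 in the 12, with a slight overlap.

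BOLA-DQA2 probe set A was lowest in exactly the 5 bulls that were on the upper level of BOLA-DQB1 alone: high IMF bulls 1, 9 and 10 and low IMF bulls 4 and 9. They lay between 5.57 and 5.97, and the lowest of the other 15 bulls was at 6.62. BOLA-DQA2 probe set C lay between 0.58 and 1.96 in 4 of these 5 bulls and was at 3.95 or more in the other 16. BOLA-DQA5 was highest in 3 bulls, low IMF bull 2 and high IMF bulls 5 and 9, at 6.25 to 7.07 against at most 5.57 elsewhere. BOLA-DQA1 probe set B was dim in every bull, at 0.04 to 4.27, with no gap.

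Other DQ probe sets thus went with parts of the 4 combinations of the first 2 probe sets. Some belong to BOLA-DQB1, a gene whose gaps led to the choice of this gene set, so the match is a description only. All these probe sets come from the same arrays and related sequences, so they are not independent measurements of the bulls.

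**Figure D3:**
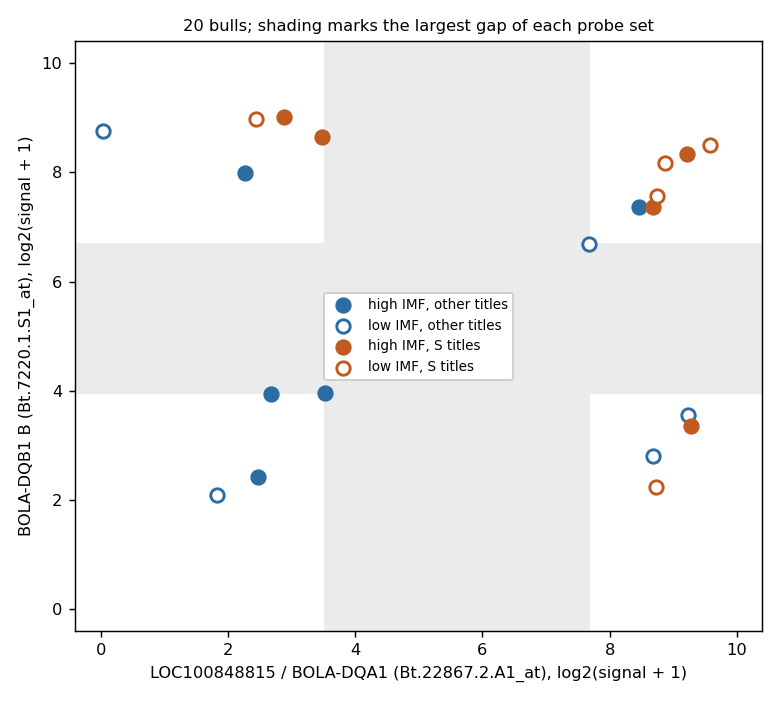
Each point is 1 of 20 bulls, placed by log2(signal + 1) of the LOC100848815 and BOLA-DQA1 probe set (x) and of BOLA-DQB1 probe set B (y); filled points are high IMF, open points low IMF, orange S titles and blue other titles, and grey bands mark the gaps. The bulls fall in 4 corners holding 7, 4, 5 and 4 bulls, and the corner with both low holds no S bull.

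For every probe set the largest step between neighbouring bulls was found with at least 3 bulls on each side, and a step of at least 1 log2 unit was counted as a gap. Among the probe sets bright enough for the tests, 4 of the 26 members had such a gap. The background was 0.465% of all probe sets so tested, 67 of 14409. Since the members were chosen for gaps, nothing is read from that count. Just inside the threshold was BOLA-N with a step of 1.05, and just outside it BOLA-DQA2 probe set A with 0.65.

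The LOC100848815 and BOLA-DQA1 probe set, with a step of 4.15, ranked 4 among the 14409, and BOLA-DQB1 probe set B, with 2.74, ranked 8. Over all probe sets, dim ones included, 10 of 46 members had a gap, against a background of 3.07%. Of the 10, 7 were class II, all DQ, and 3 were class I. Since the members were chosen for gaps in DQ genes, nothing is read from these ranks and counts either. For 2 of the DQ probe sets the counted step lay near the bottom of the range, where no order is read. It lay between 0.36 and 2.38 for BOLA-DQB1 probe set D and between 0.30 and 1.53 for probe set E. Neither step split the bulls as probe set B did. None of the 3 B2M probe sets had a gap.

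The class I members with a gap all hold BOLA-N, a class I heavy chain gene, in their annotation, 1 of them alone and 2 beside other symbols. Most class I members, with or without a gap, hold BOLA-N, so nothing is read from this. The probe set annotated BOLA-N alone ran from 2.15 to 8.88 with a median of 6.55 in high IMF bulls and from 5.43 to 9.72 with a median of 7.83 in low IMF bulls. Its step lay between 7.08 and 8.14 with 9 bulls above, 7 of them with S titles. Probe set A of those annotated to BOLA-N and JSP.1 was at 2.26 to 3.46 in high IMF bull 5 and low IMF bulls 2 and 6 and at 4.90 to 7.61 in the other 17.

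The remaining one was dim: shared class I probe set K lay between 5.86 and 7.0 in 5 bulls and at 4.28 or less in 15. The 5 were high IMF bulls 2, 3 and 8 and low IMF bulls 1 and 5.

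A split of 2 bulls against 18, which the step rule does not count, appeared in BOLA-DRB3, the DR beta chain. On its probe set B the signal was 0.92 in low IMF bull 6 and 0.00 in low IMF bull 10, both with S titles, and 6.45 to 9.16 in the other 18 bulls. Shared class I probe set L was at 8.59 to 8.92 in those 2 bulls and at 1.84 to 3.64 in the other 18. BOLA-DRB3 probe set A showed no such loss: it ran from 8.58 to 9.68 over all 20 bulls. BOLA-DMA, found by a look at all members, was highest in the same 2 bulls, at 6.87 to 7.15 against at most 6.78 elsewhere. That step was far under 1 log2 unit, and BOLA-DMA was higher in the S series as a whole. Another 9 probe sets outside the MHC, all too dim to be tested, split the same 2 bulls from the rest by at least 1 log2 unit. Over all probe sets, 5.25% had a gap when 2 bulls on a side were enough.

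A single bull stood apart on the class I probe set annotated BOLA alone: high IMF bull 9 was at 5.10 and the other 19 between 10.63 and 12.47. The array of this bull was among the pair with the lowest median signal, and the bull was also the lowest on BOLA-N, at 2.15. It was the highest of all bulls on shared class I probe sets D and E, at 8.93 and 7.94.

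B2M, the brightest class I probe set and BOLA-DRA had no such breaks. The 3 B2M probe sets ran from 12.29 to 13.36 (A), from 12.24 to 13.30 (B) and from 11.84 to 12.90 (C). The brightest class I probe set, shared probe set A, ran from 12.32 to 13.23. BOLA-DRA, the single alpha chain of DR, ran from 9.06 to 10.85. The SD over the 20 bulls was 0.28 to 0.29 for B2M, with medians of 0.41 over the 12 tested class I and 0.56 over the 11 tested class II probe sets, beside a median of 0.35 over all 14409. An SD over 1 was found in 4 tested class I and 3 tested class II members, or 26.9% of the tested members, against 1.43% of all probe sets tested. Since the members were chosen for gaps, nothing is read from that share. Shared class I probe set F was among those with an SD over 1 and ran from 3.35 to 8.50. It had no step of 1 log2 unit that left at least 3 bulls on each side.

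High and low IMF bulls were compared to ask whether MHC signal went with fat in the muscle. No member passed: 0 of 26 had an adjusted p under 0.05 by limma, and 0% of all probe sets tested did, with 239 of 14409 and 0 of the 26 members at an unadjusted p under 0.05. The lowest adjusted p over all probe sets was 0.9997, so the comparison, at 10 bulls a group, called nothing anywhere. Its model held no term for the title series, so the spread between the series counted as error. With the title series in the model no member was called either.

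The differences of B2M and BOLA-DRA were small beside their errors. B2M differed by 0.01 to 0.04 log2 units over its 3 probe sets, with standard errors of 0.13. BOLA-DRA was 0.10 lower in high IMF bulls (difference -0.10, SE 0.20), with levels of 9.50 to 10.85 against 9.06 to 10.85 in low IMF bulls. The median difference was 0.04 over the tested class I members and -0.10 over the tested class II members, and -0.03 over all probe sets tested.

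The large differences belonged to the probe sets with breaks, and their errors were large too. BOLA-DRB3 probe set B was higher in high IMF bulls by 1.83 (SE 0.92, unadjusted p = 0.0594 by limma), a value that holds the 2 low IMF bulls near 0; 9 of 10 high IMF bulls lay above the low IMF median. The LOC100848815 and BOLA-DQA1 probe set differed by -1.29 (SE 1.39) and BOLA-N by -1.21 (SE 0.78). BOLA-DQB1 probe set B differed by 0.30 (SE 1.11), and this sign turned to -0.19 without the 4 arrays with high albumin signal. All 4 had an adjusted p of 0.9997 by limma.

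The effect of IMF was also compared between the title series, as the difference of the 2 differences. By limma, 0 of 26 members and 0% of all probe sets tested passed, with 769 probe sets and 1 member at an unadjusted p under 0.05. That member was shared class I probe set D. High IMF bulls were 0.24 above low IMF bulls in the S series, and the difference in the other bulls was -0.26 (difference of the 2 0.50, SE 0.17, unadjusted p = 0.00873, adjusted p = 0.866 by limma).

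The S bulls were compared with the other bulls, with IMF group in the model, to see whether MHC signal went with the title series. Of the members, 8 of 26 passed, beside 68.3% of all probe sets tested (9838 of 14409). The share of members was thus below the background. Of the 8, 6 were higher in S bulls, a direction found in 33.4% of all probe sets tested, and 2 were lower, a direction found in 34.8%. Because the hybridization controls also differed between the title series, a difference in the muscle and one in the arrays or their handling cannot be told apart here.

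**Figure D4:**
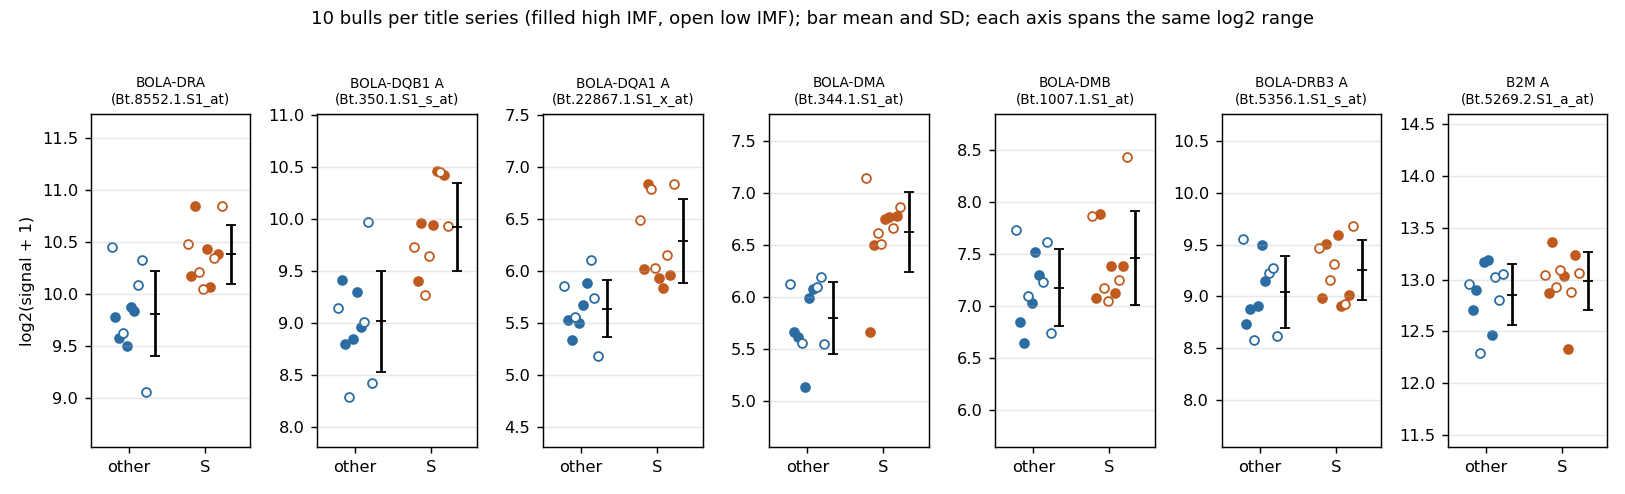
Each panel is 1 probe set, with 10 bulls of other titles (blue) and 10 S bulls (orange) as points, filled for high and open for low IMF, and a bar for the mean and SD; the y axis is log2(signal + 1) over the same span in each panel. BOLA-DRA, BOLA-DQB1, BOLA-DQA1 and BOLA-DMA sit higher in S bulls with some overlap, while B2M overlaps throughout.

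Class II held 5 of the 8, 4 of them higher in S bulls. BOLA-DMA ran from 5.66 to 7.15 with a median of 6.71 in S bulls and from 5.13 to 6.19 with a median of 5.83 in the others. It was higher by 0.83 (SE 0.15, adjusted p = 6e-05 by limma), and 9 of 10 S bulls lay above the median of the others. The single overlapping S bull was high IMF bull 6.

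BOLA-DQB1 was higher too on its brightest probe set (A), which by its suffix holds probes that can match more than 1 transcript. It ran from 9.26 to 10.46 with a median of 9.94 in S bulls and from 8.28 to 9.97 with a median of 8.98 in the others. The difference was 0.91 (SE 0.19, adjusted p = 0.000298 by limma), with 10 of 10 S bulls above the median of the others. This probe set showed no break of the kind seen in probe set B. In the 8 bulls low on the latter, probe set A lay between 8.42 and 9.94.

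BOLA-DQA1 probe set A, which is annotated to that gene alone but by its suffix holds probes that may also bind other transcripts, ran from 5.84 to 6.84 in S bulls, median 6.09, and from 5.18 to 6.11 in the others, median 5.61. It was higher by 0.65 (SE 0.14, adjusted p = 0.00042 by limma), with 10 of 10 S bulls above the median of the others. BOLA-DRA ran from 10.05 to 10.85 in S bulls, median 10.37, and from 9.06 to 10.45 in the others, median 9.81, a difference of 0.57 (SE 0.15, adjusted p = 0.00224 by limma). The ranges of both genes overlapped between the series.

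The fifth class II member fell. The probe set annotated BOLA-DQB ran from 5.57 to 7.31 in S bulls, median 6.82, and from 6.79 to 7.57 in the others, median 7.09. Its difference was -0.41 (SE 0.16, adjusted p = 0.0313 by limma), but it no longer passed without the 2 arrays with the lowest median signal (-0.22, adjusted p = 0.119), nor when any one of high IMF bulls 5, 6 and 9 or low IMF bulls 5 and 6 was left out.

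Other class II members did not pass. BOLA-DMB differed by 0.29 (SE 0.17, adjusted p = 0.142) and BOLA-DRB3 probe set A by 0.21 (SE 0.14, adjusted p = 0.183), both by limma. The probe sets with the large breaks had large differences and large errors. BOLA-DQB1 probe set B was at 2.26 more in S bulls (SE 1.01, adjusted p = 0.0532 by limma), and it did pass when arrays were centred on their medians (2.33, adjusted p = 0.0436). The LOC100848815 and BOLA-DQA1 probe set had a difference of 2.50 (SE 1.30, adjusted p = 0.0926 by limma). The 11 tested class II members had a median difference of 0.57, beside -0.00 over all probe sets tested.

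Of the 12 tested class I members 3 passed. Shared class I probe sets F and C were higher in S bulls. The first ran from 6.71 to 8.50 in S bulls, median 7.69, and from 3.35 to 8.17 in the others, median 6.80 (difference 1.06, SE 0.40, adjusted p = 0.0255 by limma). The second ran from 11.67 to 12.35, median 12.02, and from 9.92 to 12.22, median 11.54 (difference 0.61, SE 0.23, adjusted p = 0.0238 by limma).

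Lower in S bulls was probe set B of those annotated to BOLA-N and JSP.1, at 4.61 to 6.12 with a median of 5.14 against 5.21 to 6.39 with a median of 5.71 (difference -0.60, SE 0.18, adjusted p = 0.00651 by limma). None of these 3 passed when the 4 arrays with high albumin signal were left out (adjusted p = 0.0857, 0.108 and 0.105 by limma). Probe set A of the same annotation had a difference of the opposite sign, 1.16 (SE 0.57, adjusted p = 0.0762 by limma). The brightest class I probe set, shared probe set A, differed by 0.16 (SE 0.11), and the median over the tested class I members was 0.16.

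B2M did not pass on any of its 3 probe sets, and they differed in sign: 0.13 (SE 0.13) for A, -0.14 (SE 0.12) for B and 0.20 (SE 0.12) for C, with adjusted p from 0.149 to 0.373 by limma.

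**Figure D5:**
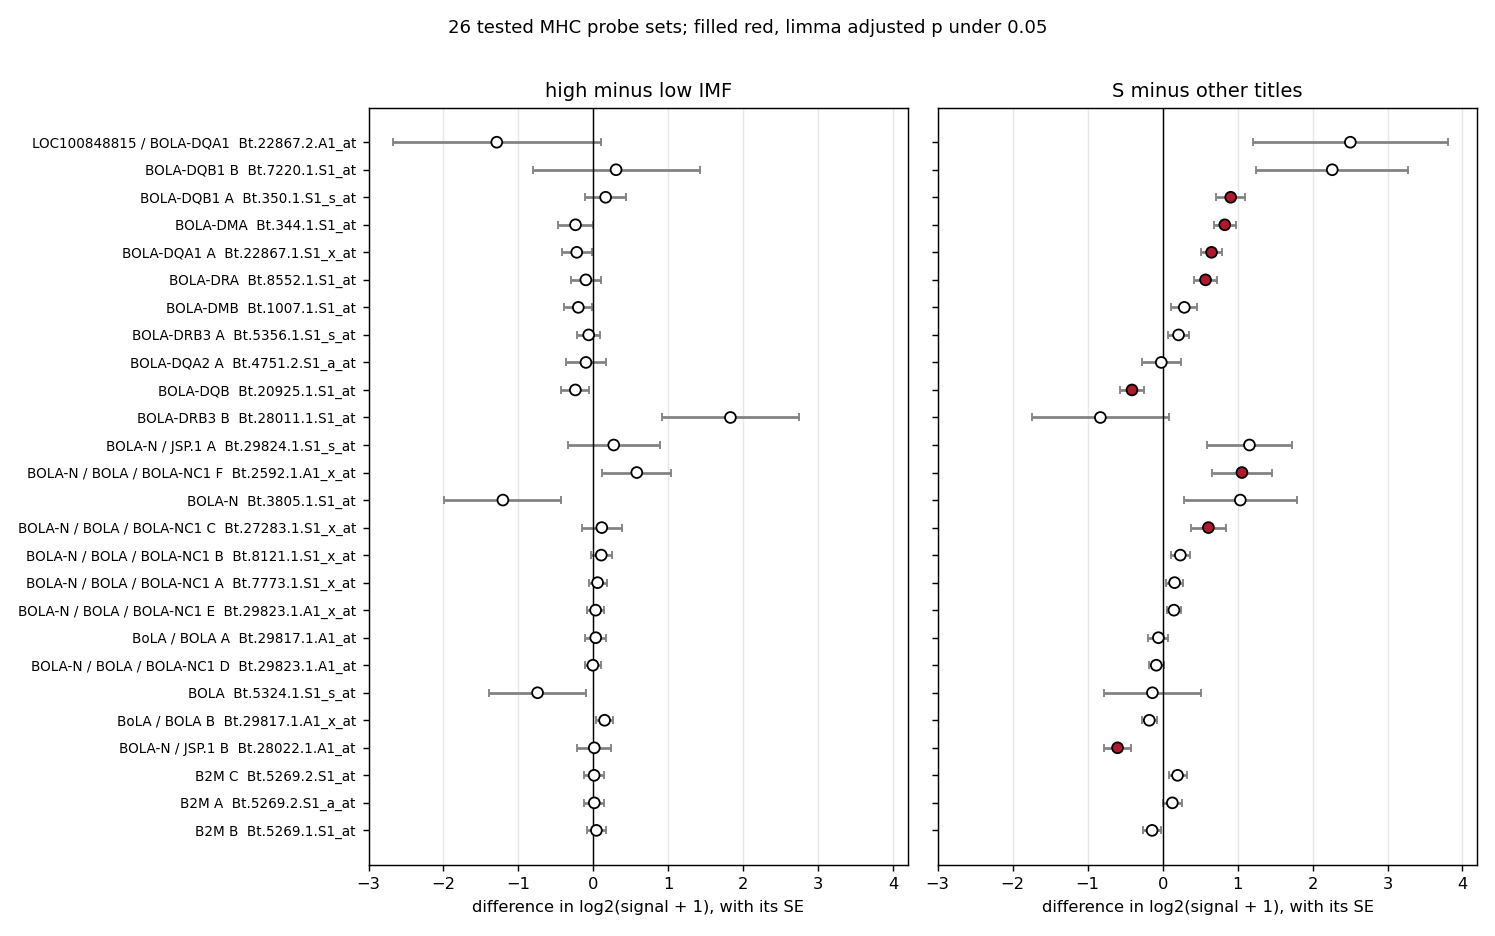
Each row is 1 of the 26 tested MHC probe sets and the x axis is a difference in log2(signal + 1) with its standard error, for high minus low IMF (left) and for S minus other titles (right); red points passed an adjusted p under 0.05 by limma. No point on the left is red, 8 on the right are, and the longest error bars belong to the probe sets with breaks.

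Among the 20 dim members, fitted only when the filter was dropped, 4 passed in the series comparison. They join the same 8 in that fit, which called 12 of 46 members and 52.3% of all probe sets. BOLA-DOA was higher in S bulls, at 3.96 to 5.28 against 2.88 to 4.51 (difference 0.75, SE 0.19, adjusted p = 0.00304 by limma). BOLA-DQA2 probe set B was lower by 1.83 on the log2 scale (difference -1.83, SE 0.54), and the 4 bulls on its upper level all had other titles. Of the shared class I probe sets, H differed by 0.77 and I by -1.44. BOLA-DYA and BOLA-DYB, the alpha and beta chains of a class II molecule of cattle and other ruminants, were dim in all bulls, at 3.50 to 4.75 and 1.25 to 4.38, and did not pass.

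BOLA-DRA was set against BOLA-DMA, BOLA-DMB, BOLA-DRB3 probe set A, BOLA-DQA1 probe set A and BOLA-DQB1 probe set A. Each had a positive r with it over all bulls. BOLA-DRA, BOLA-DMA, BOLA-DQA1 probe set A and BOLA-DQB1 probe set A were all higher in S bulls. The r, rho and permutation p over all bulls therefore also hold the difference between the title series, and do not speak for a relation within a series. The other DQ probe sets without breaks were not compared. Over 20 bulls, BOLA-DRA went with BOLA-DMB at r = 0.82 and rho = 0.85 (permutation p = 2e-05 for each, adjusted over 8 relations 8e-05 and 0.000107). It went with BOLA-DQA1 probe set A at r = 0.83 and rho = 0.80, with BOLA-DMA at r = 0.77 and rho = 0.80, with BOLA-DRB3 probe set A at r = 0.76 and rho = 0.78, and with BOLA-DQB1 probe set A at r = 0.72 and rho = 0.67. The adjusted permutation p of these 4 lay between 8e-05 and 0.00058 for r and between 0.000107 and 0.00288 for rho.

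Without low IMF bull 5 and high IMF bull 7, the farthest from the median of BOLA-DRA, the 5 values of r lay between 0.66 and 0.80. Among the 10 S bulls only the relation with BOLA-DMB passed, at r = 0.91 (adjusted permutation p = 0.00064). There r was 0.70 for BOLA-DRB3 probe set A and 0.69 for BOLA-DQA1 probe set A (adjusted permutation p = 0.0812 for each). It was 0.31 for BOLA-DMA and 0.12 for BOLA-DQB1 (adjusted permutation p = 0.423 and 0.74). In the 10 other bulls all 5 relations passed, with adjusted permutation p from 0.0158 to 0.03 over the 8 relations. There r was 0.83 for BOLA-DMB, 0.80 for BOLA-DQA1 probe set A, 0.79 for BOLA-DMA and for BOLA-DRB3 probe set A, and 0.71 for BOLA-DQB1.

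B2M probe set A was set against the 3 brightest shared class I probe sets. It went with C at r = 0.69 and rho = 0.54 (adjusted permutation p = 0.00584 and 0.0207), and r without low IMF bull 2 and high IMF bull 9 was 0.63. That value still holds high IMF bull 5, which was low on both, at 12.46 on B2M probe set A and 10.36 on C. Within the title series r with C was 0.60 in S bulls and 0.81 in the others, and rho was 0.35 and 0.53. For A and B r was 0.36 and 0.34 (adjusted permutation p = 0.146 and 0.151), so those relations did not pass.

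The pattern most like that of BOLA-DQA1 probe set A, among 8946 tested probe sets with a single symbol outside the MHC, was that of HDDC2 (r = 0.91 over 20 bulls), followed by CD34, a marker of vessel and progenitor cells, TTLL3, LOC282255 and LAPTM5, a lysosomal membrane protein of blood cells (r = 0.85). For BOLA-DQB1 probe set A it was PDLIM2 (r = 0.90), followed by RNF187, FSCN1, C5H12orf57 and PSME1 (each r = 0.83 or 0.84). PSME1 is an activator subunit of the proteasome that makes class I peptides. These r are a description and share the difference between the title series; within the series they fell to 0.82 for HDDC2 and 0.79 for PDLIM2.

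For the probe set with the break, BOLA-DQB1 probe set B, the most like was GSTM3, a glutathione transferase. GSTM3 lay between 11.46 and 13.03 in the 12 bulls on the upper level and between 9.45 and 10.87 in the 8 on the lower one, so it parted the bulls in the same way. This gene was looked for after the break had been seen. For the LOC100848815 and BOLA-DQA1 probe set it was LARS2, a mitochondrial leucyl-tRNA synthetase, whose ranges overlapped (5.96 to 7.03 against 5.72 to 6.34).

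Genes that serve the MHC were counted by list. For IMF, 0 passed by limma in any list. The counts between the title series stand beside a background of 68.3% of all probe sets tested, 33.4% higher and 34.8% lower in S bulls. Between the title series, 5 of the 10 tested genes of class II assembly and control were higher in S bulls and 4 were lower, or 90% called. NFYC, a subunit of the factor NF-Y that binds class II promoters, was higher by 0.84 (SE 0.08, adjusted p = 9.04e-09 by limma) and CTSB, a lysosomal protease, by 0.77 (SE 0.08, adjusted p = 5.18e-08 by limma). NFYB, another subunit of NF-Y, differed by -0.46 and RFX5, a further class II promoter factor, by -0.46. The list as a whole did not move one way, with a median difference of -0.06.

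Of 14 tested genes of class I processing and control, 6 were higher in S bulls and 3 lower, with a median of 0.18. The share called, 64.3%, was near the background. TAPBP, tapasin, which holds class I to the peptide transporter, was higher by 0.80 (SE 0.07, adjusted p = 1.16e-08 by limma), while HSPA5, an endoplasmic reticulum chaperone, differed by -0.59 (SE 0.08, adjusted p = 1.81e-06 by limma). The transporter genes TAP1 and TAP2 differed by 0.16 and -0.09 and did not pass. Among 13 tested interferon response genes, which include regulators of MHC expression, 6 were higher and 1 was lower, 53.8% in all and below the background. IRF9, part of the interferon-activated factor ISGF3, was higher by 0.83 (SE 0.14), and IFIT5 differed by -0.94 (SE 0.12).

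Markers of other cell types were counted in the same way. Of 14 macrophage markers on the array, 7 were tested and 5 were higher in S bulls, 0 lower. The share called, 71.4%, was near the 68.3% of all probe sets, and that of higher calls over all probe sets was 33.4%. The 5 were C1QB by 1.21 (SE 0.30), C1QA by 1.12 (SE 0.28), CD14 by 0.91 (SE 0.18), CSF1R by 0.83 (SE 0.14) and LAPTM5 by 0.64 (SE 0.15). The summed signal of the list ran from 1071 to 1598 in S bulls and from 650 to 1378 in the others. None of the macrophage markers was listed at 0 on any array. Their part in the class II differences was not tested, and in bulk tissue fewer cells of a type and less RNA per cell cannot be told apart.

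By limma, 2 of 7 tested T and NK cell markers were higher in S bulls and 1 lower, 3 of 6 endothelial markers were higher and 0 lower, and 0 of 2 tested B cell markers and 0 of 1 dendritic cell markers passed; the 3 were IGHM at 1.26 (SE 0.62), JCHAIN at -0.05 (SE 0.43) and CD83 at 0.15 (SE 0.10). IGHM is the heavy chain of IgM, JCHAIN joins its subunits and CD83 marks mature dendritic cells. All 3 tested adipocyte markers passed: CIDEC, a lipid droplet protein, was higher in S bulls by 1.84 (SE 0.55) and FABP4, a fatty acid carrier, by 1.45 (SE 0.58), while LPL, lipoprotein lipase, differed by -0.73 (SE 0.25). Of 8 muscle fibre markers, 3 were higher and 1 was lower, and of 5 tested plasma protein genes of the liver, 2 were higher and 0 lower. BLK and CD5, of the B and T cell lists, were at 0 on at least 1 array.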

How the data were processed

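The deposited values are linear intensities, 1 per probe set and array, made by the authors with GCOS 1.1.1 and Affymetrix Expression Console 1.1, per the submitters' processing notes; how probes were summarised and normalized was not given in the sources used here. Each of the 20 bulls gave 1 array, so the tests set differences against the spread between bulls, and the number of arrays limits the precision. The bulls of a title series share whatever sets the series apart, so they are not independent replicates of it. From 24128 probe sets 112 array controls were removed. Values were taken as log2(value + 1), and the 40% of probe sets with the lowest mean (under 5.39) were left out of tests, which leaves 14409.

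Gene symbols come from the array platform's annotation: 13292 probe sets hold 1 symbol, 86 several and 10638 none. Symbols were matched with case, so BoLA alone did not count. High and low IMF bulls, S and other titles (with IMF in the model) and their interaction were fitted with limma 3.58.1 (R 4.3.3, lmFit and eBayes) with Benjamini-Hochberg adjustment over all probe sets kept. The methods' paired design could not be followed, since the labels do not say which bulls form pairs. Correlations used permutation tests (scipy 1.17.1). Scripts were tested on simulated data.

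Named were all members with a gap or a call and the probe sets of BOLA-DQA1, BOLA-DQB1 and B2M. The brightest probe set of each other gene and the 5 most like genes were named too. From some of the other lists, the 2 genes with the smallest p between the title series were named, and some chosen after their values were seen. No difference of a single gene is given for the T and NK cell, endothelial, muscle fibre and liver lists, nor for IMF in any list. The members and lists were chosen with earlier results of these data known. Alternatives changed the pseudocount (16), scaling, the filter (20% or none), the model, and the arrays used.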

Additional observations from a re-analysis of the deposited data

Results flagged for a closer look

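In each IMF group of 10 bulls, the highest and the lowest bull were compared with their nearest neighbour for each of the 46 MHC probe sets. In 16 cases over 92 groups the gap was over 0.466 of the group's range, Dixon's 95% critical value for 10 samples. Chance flags about 1 in 20 groups, and the probe sets share bulls and sequences.

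High IMF bull 9 was lowest on the class I probe set annotated BOLA, at 5.10 with the next bull at 10.63, on the one annotated to BOLA and BOLA-NC1, at 3.20, and on probe set C of those annotated BoLA and BOLA, at 0.014. Low IMF bull 2 was lowest on B2M probe sets A and C, at 12.29 and 11.84, and on shared class I probe set C, at 9.92. High IMF bull 5 was lowest of its group on the same shared probe set, at 10.36, and on probe set A of those annotated to BOLA-N and JSP.1, at 2.26.

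Low IMF bull 5 was highest of its group on BOLA-DQA2 probe set B, at 7.17, and on BOLA-DQB1 probe set C, at 6.54, and lowest on BOLA-DOA, at 2.88. High IMF bull 7 was highest on BOLA-DQA1 probe set A, at 6.84. Shared class I probe set F was lowest in low IMF bull 3, at 3.35, and probe set A of those annotated BoLA and BOLA in low IMF bull 9, at 5.35. At the dim end, probe set C of those annotated to BOLA-N and JSP.1 was lowest in high IMF bull 2, at 0.084, and probe set D of those annotated BoLA and BOLA in high IMF bull 6, at 1.30.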

How the results depend on the processing

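No paired analysis was possible because the labels give each bull its own number and do not say which bulls form pairs. No member was called for IMF or for the interaction under any alternative run, the unpaired t-test and each bull left out included. For the title series, 8 members were called, 7 to 11 with 1 bull left out, but 5 without the arrays with an albumin signal over 2000 and 5 in high IMF bulls alone; other scalings and filters gave 9 to 12. The causes were not tested. The count of 4 members with a gap fell to 2 with a step of at least 2 log2 units and to 2 with a pseudocount of 16, and was 10 with no filter on dim probe sets. The IMF difference of BOLA-DQB1 probe set B, 0.30, was -0.19 without the arrays with high albumin signal, -0.14 without the 2 arrays with the lowest median signal (an alternative chosen after seeing the data, as was the gap count with no filter) and -0.13 to 0.73 with 1 bull left out. Dim probe sets, at about 3 log2 units or less, show presence or absence of signal and little else.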

Other observations

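High IMF bull 5 and low IMF bull 2, both with other titles, kept company on probe sets of both classes: with high IMF bull 9 they had the highest BOLA-DQA5 signal (6.74, 6.25 and 7.07), with low IMF bull 6 the lowest signal of probe set A of those annotated to BOLA-N and JSP.1 (2.26, 3.12 and 3.46), and alone the lowest signal of shared class I probe set C (10.36 and 9.92). They were noticed after the values were seen, and no test was made.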
